A study of Mus musculus with 32 samples.

Results

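The IL-23R homomer response was compared in size with that of the synthetic IL-12Rβ1/IL-23R heterodimer in 16 of the 32 gene arrays of a study of synthetic cytokine receptors (SyCyRs) in murine Ba/F3 cells. Ba/F3 is an interleukin-3-dependent pro-B cell line, and all lines used here were derived from Ba/F3-gp130, into which human gp130 had been transduced. Ba/F3-SyCyR(IL-23/2A), called the heterodimer line below, carries a GFP nanobody fused to the IL-12Rβ1 chain and an mCherry nanobody fused to the IL-23R chain, both made from a single reading frame split by a 2A peptide. Ba/F3-SyCyR(IL-23R), the homomer line, carries only the IL-23R chain, here fused to the GFP nanobody. The natural line, Ba/F3-IL-12Rβ1-IL-23R, holds both full receptor chains, and Ba/F3-gp130 itself is the parental line. Receptors were introduced by retroviral transduction, and each receptor is represented by 1 line. According to the protocols, cells were held without serum for 3 h and then incubated for 1 h with 100 ng/ml of ligand, which was GFP-mCherry for the heterodimer line, 3xGFP for the homomer line and hyper-IL-23 for the natural line. Control cells received supernatant of untransfected CHO-K1 cells instead. The study names no ligand for the arrays of the parental line. Receptor chain, nanobody, ligand and cell line change together between the SyCyR lines and cannot be told apart.

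Each line had 8 arrays with title numbers 13 to 20. The labels do not state which arrays came from treated cells. Arrays were therefore grouped by title number, 4 odd (13, 15, 17 and 19) and 4 even (14, 16, 18 and 20) in each line, a grouping proposed from earlier results of these same data. The genes below were chosen by their odd-even differences in these 16 arrays, so that the differences are given as a description with their standard errors (SE) and without a test. Unless stated, the SEs come from a fit without pairing. Deviations of neighbouring title numbers within a line nevertheless correlated at 0.16 to 0.49. The quantity of interest is the difference of differences, that is, odd minus even in the homomer line less odd minus even in the heterodimer line, in log2 units. A negative value of a gene that is higher in odd arrays means a smaller odd-even difference in the homomer line. It was called at 1.5-fold or more and at least 3 SE. Within a line, an odd-even difference was taken as present at 1.5-fold or more when the 4 odd and the 4 even arrays did not overlap.

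IL-23 acts through IL-12Rβ1, which binds the kinase TYK2, and IL-23R, which binds JAK2 and carries the docking sites for STAT3. STAT3 enters the nucleus and switches on immediate target genes, among them Socs3, an inhibitor of cytokine signaling. The study states that Socs3 does not target the IL-23R complex and proposes the same for IL-23R homodimers. Receptor-bound kinases also feed the ERK and AKT pathways. A homomer of IL-23R lacks the chain that brings TYK2. In the comparison of the SyCyR lines, the strong early genes of this program differed between odd and even arrays in both. The differences were smaller in the homomer line. No gene whose heterodimer difference was under 1 (log2) was present there, and of those between 1 and 2 only some were. A fixed limit ties presence to the size of a difference. The part of the missing chain was not tested, since nanobody, ligand and cell line differ as well.

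In the heterodimer line an odd-even difference was present in 125 of 23410 probe sets with a gene symbol (0.534%), 120 of them higher in the odd arrays, and in the homomer line in 35 (0.15%). All 35 were also present in the heterodimer line with the same direction, and all 35 were smaller in the homomer line. These are the kept probe sets (0.15%). A further 18 probe sets (0.0769%) were lost, meaning present in the heterodimer line, not present in the homomer line, and called in the difference of differences. That count was 29 without heterodimer array 17 and 34 without homomer array 18. No probe set was gained in the homomer line, although 1 was gained when homomer array 17 was left out. The difference of differences was called below 0 in 41 probe sets (0.175%) and above 0 in none (0%). In all 41 the odd-even difference was smaller in size in the homomer line. Without arrays 17 and 18 of both lines, 4 called probe sets had a difference that was not smaller there. The same held for 2 called probe sets when homomer array 17 was left out. With all 35556 probe sets, those without a symbol included, 104 were called and 9 were gained. In 23 of the 104 the difference was not smaller in the homomer line. Taking for each gene the brightest probe set with 1 symbol, 102 genes were present in the heterodimer line, of which 33 were kept, 16 were lost and 53 were neither, since their difference of differences did not pass the limits. The 37 genes called below 0 were 21 kept and the 16 lost genes. In these cell populations, fewer responding cells and less RNA per responding cell cannot be told apart.

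**Figure D1:**
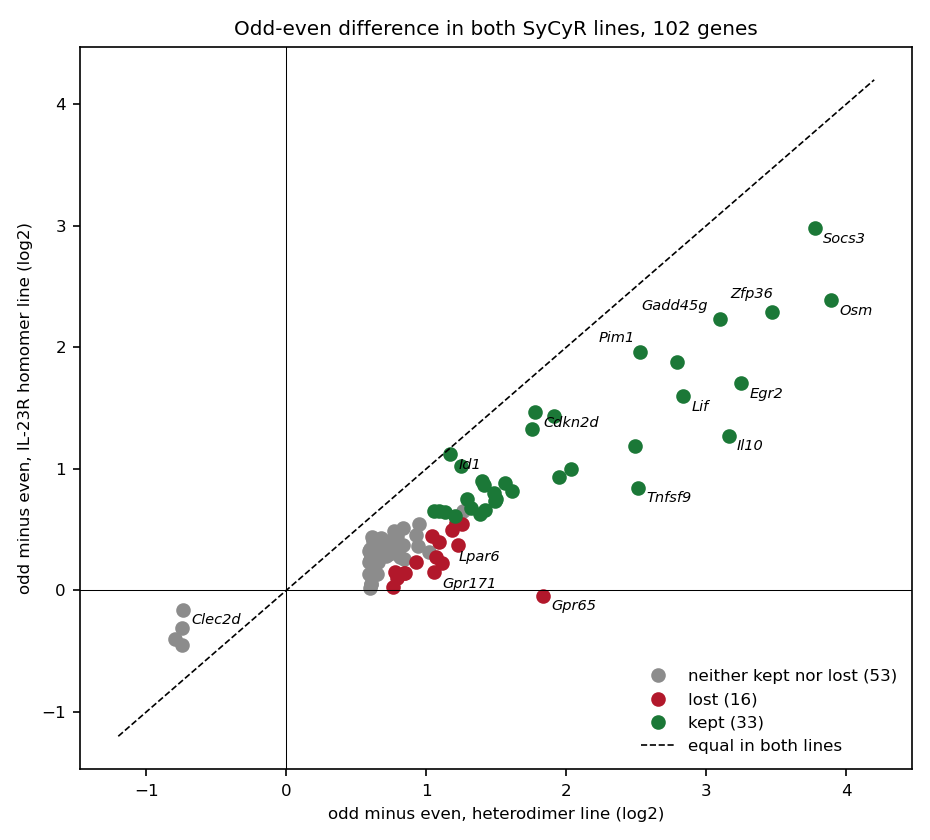
Odd minus even (log2) in the IL-23R homomer line against odd minus even in the heterodimer line for the 102 genes present in the latter, 1 point per gene, colored as kept, lost or neither, with the line of equal size dashed. All 98 genes that were higher in the odd heterodimer arrays lie below the dashed line. Their selection on the heterodimer line favours that side. Of all 23410 probe sets, 51.9% had a difference of differences below 0.

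The genes were first set against the DNA letters upstream of their starts, since STAT factors bind the palindrome TTCNNNGAA. In RefSeq windows of the assembly GRCm38.p6, reaching from 250 bases before to 50 bases after a start, the motif (which reads the same on both strands) was found in 7 of 28 kept genes with a window (25%), in 3 of 13 lost genes (23.1%) and in 3 of 36 genes that were neither (8.33%). Among 15614 genes of the array with a window the share was 8.99%, and among all 32851 windows it was 8.30%. The AP-1 motif TGANTCA was found in 5 of 28 kept genes (17.9%) and 1 of 13 lost genes (7.69%), beside 8.08% of the array's genes. These are letter matches and not measured binding, and a gene with several starts had several windows. The stretches around the STAT motif are shown for 4 kept and 2 lost genes, to let their settings be compared, 5′ to 3′ on the strand of the gene and with the motif in capitals. Socs3 (minus strand, chr11:117969482-117969550) has it 154 bases before the start, Irf1 (plus strand, chr11:53769894-53769962) 90 bases, Zfp36 (minus strand, chr7:28379229-28379275) 17 bases and Gpr146 (plus strand, chr5:139380490-139380558) 119 bases before. Of the lost genes, Bcl6 (minus strand, chr16:23988932-23989000) has it 118 bases before this start, and Tgm1 (minus strand, chr14:55713518-55713695) has it 173 and 64 bases before.
Socs3, kept: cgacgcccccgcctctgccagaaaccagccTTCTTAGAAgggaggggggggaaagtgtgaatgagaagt
Irf1, kept: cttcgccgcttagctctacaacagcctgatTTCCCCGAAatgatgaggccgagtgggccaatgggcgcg
Zfp36, kept: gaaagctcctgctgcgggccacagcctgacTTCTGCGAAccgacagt
Gpr146, kept: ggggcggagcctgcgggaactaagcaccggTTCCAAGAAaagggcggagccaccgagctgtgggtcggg
Bcl6, lost: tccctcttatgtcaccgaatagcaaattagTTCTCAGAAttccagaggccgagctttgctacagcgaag
Tgm1, lost: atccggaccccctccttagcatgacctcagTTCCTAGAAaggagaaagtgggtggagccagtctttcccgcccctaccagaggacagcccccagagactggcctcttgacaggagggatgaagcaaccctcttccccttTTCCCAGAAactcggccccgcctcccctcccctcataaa

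Feedback inhibitors of cytokine signaling kept their odd-even difference to unequal degrees. Socs3, which blocks JAK kinases at some cytokine receptors, read 12.77, 12.82, 12.73 and 12.81 (log2 signal) in the odd heterodimer arrays and 9.07, 8.83, 9.04 and 9.09 in the even ones. In the homomer line it read 11.89, 11.75, 12.02 and 12.06 in the odd arrays and 8.79, 8.87, 9.21 and 8.93 in the even ones. The even arrays of the lines overlapped, and every odd homomer array was below every odd heterodimer array. The odd-even difference was 3.77 in the heterodimer line (13.7-fold) and 2.98 in the homomer line (7.88-fold), with a difference of differences of -0.80 ± 0.13 (SE), so that 78.9% of the log2 difference was kept. A dimmer Socs3 probe set gave 2.37 and 1.43. Cish, another inhibitor of the family and a classical STAT5 target, went from 2.03 to 1.00 (-1.03 ± 0.17), a share of 49.2%. Socs1 went from 1.21 to 0.56 (-0.65 ± 0.12) and counted as lost, although its 4 odd homomer arrays (8.06 to 8.56) lay above its 4 even ones (7.64 to 7.70). Its loss thus rests on the 1.5-fold limit and not on an absent difference.

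Among the cytokine genes the difference of differences was large. Osm, which encodes the IL-6 family cytokine oncostatin M, read 12.36, 12.60, 12.31 and 12.62 in the odd heterodimer arrays and 8.77, 8.56, 8.36 and 8.64 in the even ones, against 10.99, 10.97, 11.23 and 11.26 in the odd and 8.44, 9.004, 8.72 and 8.74 in the even homomer arrays. The even arrays overlapped between the lines and the odd arrays did not. Its fold thereby went from 14.82 to 5.23, a difference of differences of -1.50 ± 0.16. Lif, a related cytokine, went from 2.84 to 1.60 (-1.24 ± 0.17), and Il6 from 1.95 to 0.93 (-1.02 ± 0.25).

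Il10, encoding an anti-inflammatory cytokine, had, with Gpr65, the largest difference of differences, -1.89 ± 0.27. It read 7.96, 8.91, 8.12 and 9.02 in the odd heterodimer arrays, 6.97, 6.47, 6.66 and 6.91 in the odd homomer arrays, and between 5.17 and 5.67 in the 8 even arrays. Odd arrays lay above even arrays in both lines, but all 4 odd homomer arrays were below 7.02, the median of all probe set means, where a signal was not shown to be above background. The kept Il10 difference of the homomer line (1.27, 40.2% of 3.16) is therefore less secure than the others. Of the TNF superfamily ligands, Tnfsf9 (4-1BB ligand) went from 2.51 to 0.85 (-1.67 ± 0.21), the lowest share of any kept gene at 33.6%, with even group means (6.84 and 6.98) that were also below 7.02. Tnfsf14 (LIGHT) went from 1.26 to 0.54 (-0.71 ± 0.13) and counted as lost, although its odd and even homomer arrays did not overlap.

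**Figure D2:**
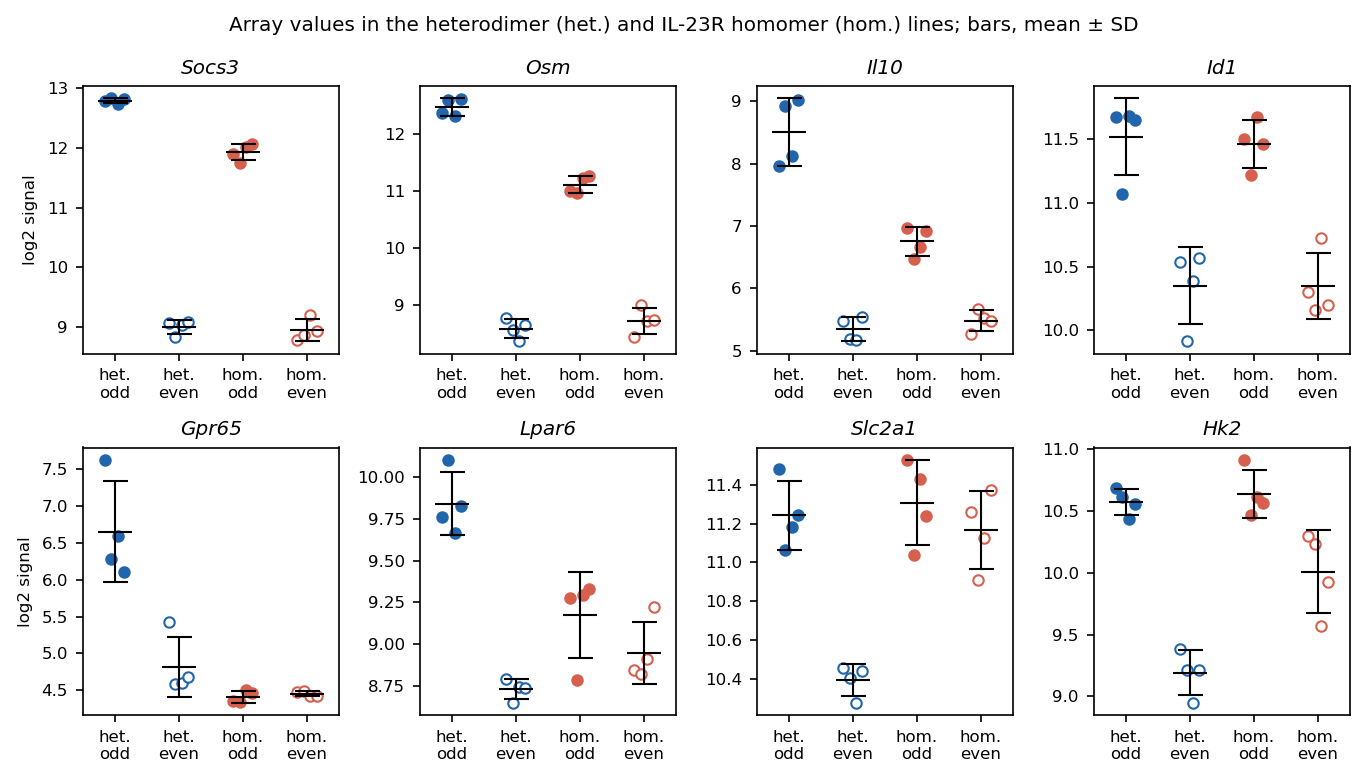
Log2 signal of 8 genes in each array (points; filled for odd and open for even title numbers) of the heterodimer line (het., blue) and the homomer line (hom., red), with mean ± SD of 4 arrays. Socs3, Osm and Il10 differ between the lines in the odd arrays, Id1 does not, and Slc2a1 and Hk2 differ in the even arrays.

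Genes of transcription factors kept unequal shares of their difference. Egr2, an immediate early zinc finger factor, went from 3.25 to 1.70 (-1.55 ± 0.24), with odd homomer arrays at 9.92, 8.88, 9.65 and 9.77 and odd heterodimer arrays at 10.91, 11.16, 10.83 and 11.26. The lowest homomer array, number 15, was also the one with the lowest odd value of Zfp36 and Gadd45g in that line. Fos went from 1.48 to 0.80 (-0.68 ± 0.19), while its AP-1 partner Junb went from 1.76 to 1.32 (-0.43 ± 0.15, not called). Another AP-1 gene, Fosl2, was lost, going from 1.07 to 0.27 (-0.80 ± 0.18). Cebpd, Nfil3 and Csrnp1 were kept at 46.5%, 56.3% and 50.5% of their heterodimer difference, each with a called decrease. The interferon regulatory factor Irf1 (-0.49 ± 0.15) and Mycn (-0.50 ± 0.23) were kept without a call.

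The Id genes, inhibitors of basic helix-loop-helix factors, differed from each other. Id1 read 11.67, 11.07, 11.68 and 11.65 in the odd heterodimer arrays and 11.50, 11.21, 11.67 and 11.46 in the odd homomer arrays, beside even values of 9.91 to 10.56 and 10.16 to 10.72. The arrays of the lines overlapped in both parities. Its odd-even difference was 1.17 in the heterodimer line and 1.12 in the homomer line, a difference of differences of -0.05 ± 0.23 and the highest share kept, 95.7%. Heterodimer arrays 15 and 16 both stood low in their groups, at 11.07 and 9.91. Id2 went from 0.93 to 0.23 (-0.69 ± 0.21) and was lost. Bcl6, a transcriptional repressor that STAT3 induces, was lost as well, from 0.77 to 0.15 (-0.62 ± 0.14). Its odd homomer arrays, 7.79, 7.69, 7.70 and 7.78, overlapped the even ones, 7.43, 7.69, 7.49 and 7.74.

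Survival and growth control genes also differed among themselves. Pim1, a serine/threonine kinase that supports survival of cytokine-dependent cells, read 12.45, 12.64, 12.36 and 12.45 in the odd heterodimer arrays and 12.31, 12.14, 12.12 and 12.45 in the odd homomer arrays, so that the odd arrays overlapped between the lines. Its difference went from 2.53 to 1.96 (-0.57 ± 0.15), just short of 1.5-fold, and 77.4% was kept. Its relative Pim2 was neither kept nor lost, going from 1.02 to 0.32 (-0.70 ± 0.25). With neighbouring title numbers as a block its SE was 0.079 and with the title number as a block 0.19, and it then counted as lost, as did Cxcr2 (-0.61, with SEs of 0.26 without a block and 0.14 and 0.20 with these blocks). Even homomer arrays of Pim2 read 10.86 to 11.80, against 10.14 to 10.35 in the heterodimer line. Cdkn2d, the cyclin-dependent kinase inhibitor p19, was kept at 82.8% (1.77 and 1.47, -0.31 ± 0.18), and the stress gene Gadd45g at 72.0% (3.10 and 2.23, -0.87 ± 0.16). Gadd45b was kept without a call (-0.44 ± 0.14), and the antiproliferative gene Btg2 was lost, from 0.84 to 0.14 (-0.70 ± 0.18). Il4ra, the IL-4 receptor chain, was kept at 75.0% (-0.48 ± 0.16).

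Both mRNA decay factors of the Zfp36 family that were present were also kept. Zfp36 (tristetraprolin), which binds AU-rich elements and speeds the decay of cytokine mRNAs, went from 3.47 to 2.29 (-1.18 ± 0.17, 65.9% kept), with odd arrays at 10.95 to 11.45 in the heterodimer line and at 9.47 to 10.05 in the homomer line. Zfp36l1 was kept at 49.4%. The RNase gene Zc3h12a (Regnase-1) was present only in the heterodimer line, at 0.69 against 0.35, but the difference of differences was not called (-0.34 ± 0.15). Arid5a, whose product protects Il6 mRNA, was kept at 51.6% (-0.64 ± 0.11).

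Of the genes of G protein-coupled receptors, some were lost, 1 was kept and others were neither, and no list of such genes was examined. The acid-sensing receptor Gpr65 read 7.63, 6.28, 6.59 and 6.11 in the odd heterodimer arrays, 5.42, 4.58, 4.59 and 4.67 in the even ones, and 4.34 to 4.50 in all 8 homomer arrays, without an odd-even difference in the latter (-0.04). Its difference of differences was -1.88 ± 0.33. The natural line also had no difference (-0.11), and 3 of the 4 odd heterodimer arrays were below 7.02. Lpar6, a lysophosphatidic acid receptor, was lost, from 1.11 to 0.23 (-0.88 ± 0.17), with odd homomer arrays at 9.28, 8.79, 9.30 and 9.33 against 9.76, 10.11, 9.67 and 9.83 in the heterodimer line. Gpr171 (-0.90 ± 0.27) and P2ry13 (-0.60 ± 0.14) were lost by another route, given below. Gpr146 was kept at 47.5%, going from 2.49 to 1.19, while Cxcr2, Ffar2 (0.77 and 0.49) and Ffar4 (0.70 and 0.32) were neither.

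**Figure D3:**
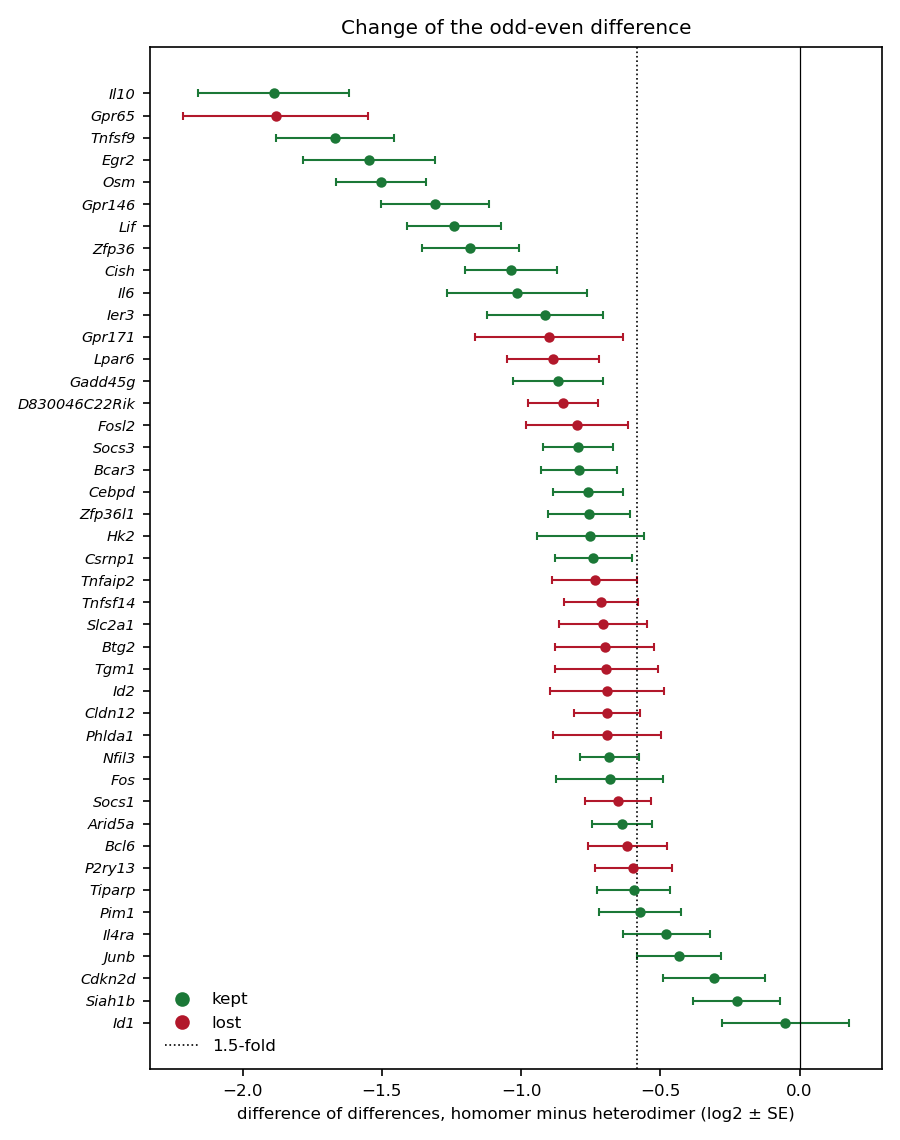
Difference of differences (homomer minus heterodimer line, log2 ± SE, 16 arrays) of the 37 genes called and of 6 kept genes that were not, colored as kept or lost, with the 1.5-fold limit dotted. Il10 and Gpr65 lie lowest and Id1 lies at about 0.

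The remaining lost genes were Tnfaip2 (0.76 and 0.03), Slc2a1 (0.85 and 0.14), Phlda1 (0.79 and 0.10), Tgm1 (1.19 and 0.49), Cldn12 (1.09 and 0.40) and D830046C22Rik (1.22 and 0.38). The last was below 7.02 in all 8 homomer arrays and in the 4 even heterodimer arrays. For Cldn12 the 4 odd homomer arrays (8.91 to 9.34) lay above the 4 even ones (8.64 to 8.67). Its loss, like that of Socs1, thus rests on the 1.5-fold limit. Tnfaip2 kept the smallest share after Gpr65, 3.77%. Its 4 odd homomer arrays (9.82 to 10.14) lay within the range of the 4 even ones (9.74 to 10.26), and all 8 were below the even heterodimer arrays (10.46 to 10.73). Just inside the limits for a call were Bcl6, P2ry13 and Tiparp (-0.60 ± 0.13), and just outside were Pim2 and 2 probe sets of Chd7 (-0.75 ± 0.25 each). Chd7, a chromatin remodeler, has 30 probe sets, of which another 2 were lost. Near the limit for presence in the homomer line, Tiparp (0.61), Hk2 (0.63) and Irf1 (0.64) were just inside, and Socs1 (0.56), Myd88 and Tnfsf14 (both 0.54) just outside.

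The limits tie the class of a gene to the size of its difference in the heterodimer line, so the counts by size are a description. All 12 genes with a heterodimer difference of 2 or more were kept, with shares of 33.6% to 78.9%. Of 33 genes between 1 and 2, 21 were kept, 10 lost and 2 neither. Of 53 genes under 1 that were higher in odd arrays, none was kept, 6 were lost and 47 were neither. The median share of the log2 difference found in the homomer line was 58.8%, 50.5% and 45.6% in these classes. Over the 98 genes, the differences in the lines correlated with Pearson's r = 0.91 and Spearman's rho = 0.77, a description across genes that share the same 16 arrays and were selected on the heterodimer line.

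A list selected on other arrays gave a similar picture. In the natural receptor line, 230 probe sets showed an odd-even difference (0.982%), 199 of them higher in the odd arrays. The median difference of these 199 was 1.11 in the natural line, 0.62 in the heterodimer line and 0.24 in the homomer line, the last being 39.2% of the heterodimer median. In 182 of the 199 (91.5%) the value was lower in the homomer line, beside 51.9% of all 23410 probe sets. Of these 199, 109 were present in the heterodimer line and 35 in the homomer line, 38 were called smaller and none larger. Across the 199 the differences in the SyCyR lines correlated with r = 0.93 and rho = 0.80, and the slope of the homomer on the heterodimer difference was 0.61. The 31 probe sets that were lower in the odd arrays of the natural line had medians of -0.71, -0.37 and -0.24 in the natural, heterodimer and homomer lines, and none of them was called.

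The homomer arrays varied more among themselves than the heterodimer arrays in the size of the difference. Taking neighbouring title numbers together (13 with 14 and so on), the median difference of the 35 kept probe sets was 1.70, 1.77, 1.71 and 1.84 in the heterodimer line and 1.30, 0.75, 1.04 and 0.93 in the homomer line. For the 18 lost probe sets the medians were 1.00, 1.00, 0.95 and 1.04 against 0.40, 0.01, 0.37 and 0.17. The values of the lines did not overlap for either set, but both sets were chosen by these same differences. The lowest homomer values came from arrays 15 and 16 in both. In the parental line the medians of the kept probe sets were at most 0.03.

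**Figure D4:**
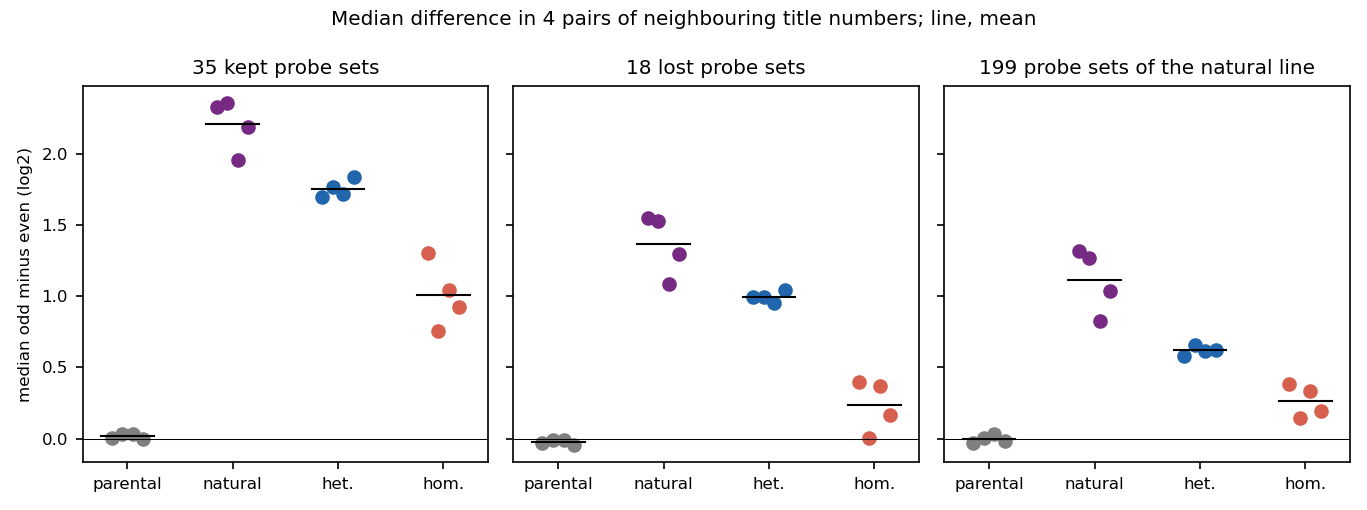
Median odd minus even (log2) of the 35 kept, the 18 lost and 199 probe sets selected in the natural line, 1 point for each of 4 pairs of neighbouring title numbers in the parental, natural, heterodimer (het.) and homomer (hom.) lines, with the mean as a line. Homomer points lie below the heterodimer points and above the parental ones in all 3 panels. The kept and lost sets were selected on the SyCyR arrays shown.

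The parental line, which has no synthetic receptor and for whose arrays the study names no ligand, served as the background of the numbering. No probe set had an odd-even difference there (0%). A test of odd against even in its 8 arrays with limma called 0 probe sets at an adjusted p under 0.05, the lowest adjusted p being 0.9999, and 435 of 23410 probe sets (1.86%) had an unadjusted p under 0.05. With neighbouring title numbers as a block, limma also called 0, and 1134 probe sets had an unadjusted p under 0.05. For the 125 probe sets present in the heterodimer line, the parental difference was at most 0.26 in size, the value of Pim1.

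A smaller odd-even difference can sit in the odd or in the even arrays, and both were seen. In 85 of the 102 genes the odd level was lower in the homomer than in the heterodimer line, and in 72 of these the odd arrays made the larger part. The 102 genes were selected on the heterodimer line, which favours a lower odd level in the homomer line, so these counts are a description. Over all 23410 probe sets the median odd level differed by -0.002 and the median even level by 0.004. The median odd level differed by -0.64 for the 33 kept genes and by -0.70 for the 16 lost genes, while the even level differed by 0.14 and 0.08. Egr2, Osm and Il10 belonged here, with even levels that differed by 0.06, 0.14 and 0.14. For 26 genes the even level made the larger part, among them 5 kept and 4 lost genes.

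Hk2 and Slc2a1, the only glycolysis and hypoxia genes of the list below that were present, were of this second kind. Hk2 (hexokinase 2) read 10.69, 10.61, 10.44 and 10.56 in the odd heterodimer arrays and 10.92, 10.47, 10.61 and 10.56 in the odd homomer arrays, which overlapped. Its even arrays read 9.39, 9.21, 8.95 and 9.21 in the heterodimer line against 10.30, 10.24, 9.57 and 9.93 in the homomer line and did not overlap. The difference went from 1.38 to 0.63 (-0.75 ± 0.19). Slc2a1, the glucose transporter GLUT1, differed by 0.07 between the lines in the odd arrays and by 0.77 in the even ones, and its homomer arrays overlapped between odd (11.04 to 11.53) and even (10.91 to 11.37). The receptor gene Gpr171 was higher in the homomer line in both, by 0.64 in the odd and 1.54 in the even arrays. P2ry13, a purinergic receptor, differed by -0.09 in the odd and by 0.51 in the even arrays. Both glucose genes had parental levels near the even heterodimer arrays, with Hk2 at 8.82 to 9.48 and Slc2a1 at 10.18 to 10.32 over the 8 parental arrays.

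**Figure D5:**
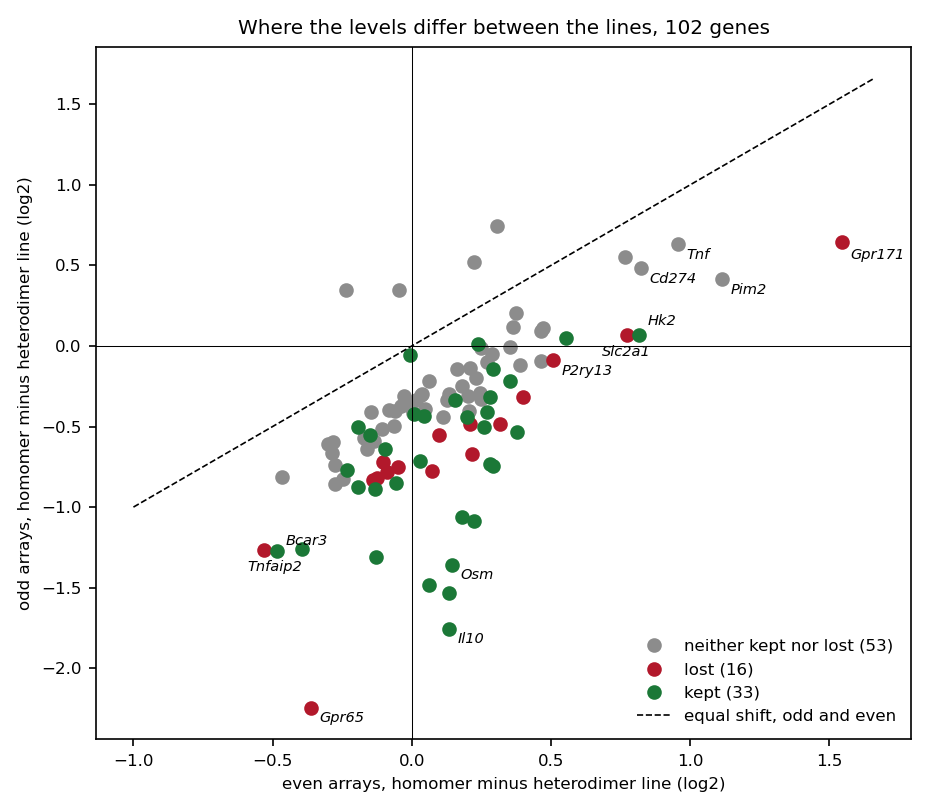
Homomer minus heterodimer level (log2) in the odd arrays against the same in the even arrays for 102 genes, colored as kept, lost or neither, with equal shift dashed. Most points lie near 0 on the x axis and below 0 on the y axis, whereas Hk2, Slc2a1, Pim2 and Gpr171 lie to the right. The genes were selected on the heterodimer line, which favours points below 0 on the y axis.

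Of 30 STAT3 target and feedback genes measured, 16 were present in the heterodimer line and 11 in the homomer line. All 11 were kept, 2 were lost (Socs1 and Bcl6), 3 were neither (Pim2, Bhlhe40 and Icam1), and 10 were called smaller. Their median difference was 0.68 in the heterodimer and 0.32 in the homomer line. Of 37 immediate early and feedback genes of the ERK pathway, 16 were present in the heterodimer and 7 in the homomer line, 3 were lost (Fosl2, Btg2 and Phlda1) and 8 were called smaller, with medians of 0.26 and 0.10. The ERK phosphatase Dusp1 was neither, at 0.65 and 0.14 (-0.51 ± 0.30), and the ERK inhibitor Spry2 was kept (1.05 and 0.65). Over all 19938 genes the medians were 0.00 and -0.00. Of these genes 102 were present in the heterodimer and 33 in the homomer line, and 37 were called smaller.

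Lists of other pathways are given beside the whole array, where 102 of 19938 genes were present in the heterodimer line and 33 in the homomer line. In the NF-κB list of 19 genes, Nfkbiz, Tnf and Icam1 were present in the heterodimer line, none was present in the homomer line and none was called (Nfkbiz -0.37 ± 0.16, Tnf -0.32 ± 0.37). Tnf was higher in the homomer line in odd and even arrays alike, by 0.63 and 0.95. Of 19 interferon response genes only Irf1 was present, and Irf9 had a difference of differences of -0.38 ± 0.13 that did not reach 1.5-fold. In the list of 29 JAK-STAT receptors and components only Il4ra was present. No member of the lists of Th17 effector (12 genes), MYC and ribosome biogenesis (19) or BCL2 family genes (12) was present in either line. For lists of this size that is near the share of all genes. Of the 12 Th17 genes, 10 had a mean signal below 7.02. Mcl1, a survival gene of the last list, differed by -0.26 ± 0.10 and Odc1, a MYC target, by 0.08 ± 0.15. In the PI3K-AKT and FoxO list of 20 only Bcl6 was present, and Txnip had a value of 0.36 ± 0.26. Of 23 cell cycle genes only Cdkn2d was present, and of 21 glycolysis and hypoxia genes only Hk2 and Slc2a1. Slc2a3, the glucose transporter GLUT3, was present in neither line (0.34 and 0.00). Of the genes the study listed, the 12 that could be measured were all kept and 9 were called smaller, but that list was drawn from these samples and is not independent evidence.

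Genes that were lower in the odd arrays were few. In the heterodimer line they were Rgs2, a regulator of G protein signaling (-0.74), Six4 (-0.79), Arrdc3 (-0.74) and Clec2d (-0.74). In the homomer line they stood at -0.45, -0.40, -0.31 and -0.16, and none was present there. Clec2d, a C-type lectin, came closest to a call at 0.58 ± 0.15, with odd homomer arrays at 10.44 to 10.68 against 9.86 to 10.42 in the heterodimer line. Of the 125 probe sets present in the heterodimer line, 113 were present in the natural line as well. Of the 102 genes, 10 stayed under 1.5-fold in the natural line, among them Gpr65, Rnase12 (0.11), Clec5a (0.12, beside 0.61 and 0.05 in the SyCyR lines) and Cxcr2, a chemokine receptor gene (-0.09, beside 1.26 and 0.66).

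No marker of a cell type passed the limits for an odd-even difference, although the levels of some differed between the lines. Lists of markers were examined for pro-B cells, T cells, the mast cell and basophil lineage, granulocytes with macrophages, and the erythroid and megakaryocyte lineage. None of their 41 measured genes was present in either line or called, and neither was any of 10 reference genes. Of all 19938 genes, 102 were present in the heterodimer line and 33 in the homomer line. A count of 0 is near that share for lists of this size and says little about the markers. In the homomer line the level of Itgam was higher by 1.61 in the odd and 1.89 in the even arrays, that of Lyz2 by 1.30 and 1.48 and that of Fcer1a by 1.02 and 0.93, the last beside SDs of 0.60 to 0.88 within its groups of 4. The homomer minus heterodimer level was -1.35 and -1.53 for Mpo and -0.55 and -0.69 for Cd79a. For Mpo the SDs were 0.94 and 0.87 in the odd and even heterodimer arrays and 0.38 and 0.40 in the homomer ones. The odd and even heterodimer means of Itgam (6.06 and 6.11) and Lyz2 (5.86 and 5.80) were below 7.02. The part of these level differences in the results above was not tested. Of 11 measured pro-B markers 7 were below 7.02, although the line is described as pro-B. Of the 12 granulocyte and macrophage markers, 8 were below it, and their mean per array was 6.84 to 7.24 in the heterodimer line and 6.95 to 7.42 in the homomer line. Il23r lay at 5.95 to 6.67 and Il12rb1 at 7.83 to 8.44 over both SyCyR lines, against 13.2 to 13.3 and 12.3 to 12.7 in the natural line, so these probe sets gave no measure of the synthetic chains. Arrays correlated at 0.992 to 0.996 within the heterodimer line and at 0.990 to 0.996 within the homomer line, and array medians were 6.95 to 7.10 and 6.94 to 7.11.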

How the data were processed

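RNA of 32 samples was hybridized to Affymetrix Mouse Gene ST 1.0 arrays. The authors normalized the arrays by RMA with sketch-quantile normalization in Expression Console, and the deposited table holds log2 values per probe set. The sources used here do not name the software version. Lines came from the labels, which give no treatment, and the protocols name 4 independent replicates per state. The parity of the title number, the gene lists and the rules were chosen with earlier results of these data known. Gene names came from the platform annotation, with 1 symbol for 21789 probe sets, several for 1621 and none for 12146. The 23410 with a symbol were fitted in R 4.3.3 by the lmFit and eBayes functions of limma 3.58.1 (4 groups of 4 arrays, 1 mean each) for log2 values and moderated SE. The parental line was tested with limma and Benjamini-Hochberg adjustment. Python 3.11.15 was used for the counts and figures. The script was tested on simulated data.

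Genes to be named were the top genes of the study, the 15 largest called decreases, up to 8 called increases, the 8 largest kept differences without a call, Il23r, Il12rb1 and 2 to 4 members of each list. Other genes named are members given as examples, chosen after their values were seen. Of several probe sets of a gene the brightest was used. Alternatives were the title number or neighbouring numbers as a block, each array left out, arrays 17 and 18 left out, a filter on dim probe sets, centring, all probe sets, all 32 arrays in 1 fit, and other limits. Promoter windows came from RefSeq. The sequences of the receptor constructs are not used here. The number of arrays limits the precision.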

Additional observations from a re-analysis of the deposited data

Results flagged for a closer look

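In 22 of 328 groups of 4 arrays tested for the named genes, 1 array stood apart from the other 3 by more than Dixon's 95% limit, and chance flags about 1 in 20 groups. All values are log2 signals of 1 array. Array 15 stood apart for Gadd45g 10.93 in the homomer line (lowest, the others 11.37 to 11.43), Hdc 6.10 in the homomer line (lowest, the others 6.67 to 6.72), Id1 11.07 in the heterodimer line (lowest, the others 11.65 to 11.68), Il4ra 11.89 in the heterodimer line (lowest, the others 11.98 to 11.99), Lpar6 8.79 in the homomer line (lowest, the others 9.28 to 9.33), Ngp 6.25 in the heterodimer line (highest, the others 5.83 to 5.87) and Odc1 10.999 in the heterodimer line (lowest, the others 11.38 to 11.41). Array 13 stood apart for Batf 8.96 in the homomer line (highest, the others 8.82 to 8.83) and Ccr6 5.65 in the heterodimer line (lowest, the others 5.96 to 5.99). Array 14 stood apart for Cd3g 5.16 in the homomer line (lowest, the others 5.64 to 5.69) and Gpr65 5.42 in the heterodimer line (highest, the others 4.58 to 4.67). Array 16 stood apart for Cdkn1b 10.59 in the homomer line (lowest, the others 10.72 to 10.73), Rrp9 8.82 in the heterodimer line (lowest, the others 9.07 to 9.09), Srm 11.31 in the heterodimer line (lowest, the others 11.72 to 11.77) and Vpreb1 6.22 in the homomer line (lowest, the others 6.58 to 6.65). Array 17 stood apart for Fosl2 10.17 in the heterodimer line (lowest, the others 10.59 to 10.65) and Gbp3 6.60 in the heterodimer line (highest, the others 6.42 to 6.44). Array 18 stood apart for Hdc 6.62 in the homomer line (lowest, the others 6.70 to 6.71), Il12rb1 8.04 in the homomer line (lowest, the others 8.24 to 8.27) and Mcl1 11.67 in the heterodimer line (lowest, the others 11.76 to 11.76). Array 19 stood apart for Klf1 8.85 in the heterodimer line (lowest, the others 9.33 to 9.41). Array 20 stood apart for Batf 8.64 in the homomer line (lowest, the others 8.75 to 8.77). Of the genes called or kept in the report, Gpr65, Fosl2, Lpar6, Gadd45g, Id1 and Il4ra were among them. Over all alternatives run their differences of differences stayed below 0, apart from Id1, which ranged from -0.20 to 0.10.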

How the results depend on the processing

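The numbers of called, kept, lost and gained probe sets were 41, 35, 18 and 0. Leaving out each array in turn gave 37 to 58 called, 33 to 38 kept, 15 to 34 lost and 0 to 1 gained, with 29 lost without heterodimer array 17, 34 without homomer array 18 and 1 gained without homomer array 17. The homomer share of the median of the 199 probe sets of the natural line was 39.2%, and 29.4% to 49.2% with an array left out. In the parental line 0 probe sets were called with each array left out or with neighbouring numbers as a block. Without arrays 17 and 18 of both lines the lost probe sets numbered 28. At 2-fold, 11 were called, 18 kept and 3 lost. With all 35556 probe sets, those without a symbol included, 104 were called, 38 lost and 9 gained. Of the 104, the odd-even difference was smaller in size in the homomer line in 81 and not smaller in 23. Called probe sets whose difference was not smaller in the homomer line numbered 4 without arrays 17 and 18 and up to 2 with an array left out. They numbered 1 with the title number as a block and 2 at 2 SE. The cause of these shifts was not tested. With the title number as a replicate block the counts were 48, 35, 24 and 0. Deviations of same-numbered arrays of the SyCyR lines correlated at 0.07 to 0.48, and as they did not all exceed 0.1 the numbers were not taken as pairs. Neighbouring numbers within a line correlated at 0.16 to 0.49, all above 0.1, which no label explains. The SEs and classes in the results nevertheless come from the fit without this block, unless a block is named. As a block, neighbouring numbers gave 47, 35, 24 and 0. Either block turned 2 genes, Pim2 and Cxcr2, from neither to lost. The bright probe sets alone, centring, all 32 arrays in 1 fit and a limit of 2 SE left every count within 1.5 times. For the 82 named genes, 2029 values moved by less than their spread and 2 moved further, those of Il23r and Lyz2 without arrays 17 and 18. Signals below 7.02 (Il10, Gpr65, D830046C22Rik and even arrays of Tnfsf9, P2ry13, Clec5a, Muc1, Tnf, Eid3 and Mir146b) limit what the folds of these genes show.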
